A study of Mus musculus with 15 samples.

Results

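The genes described here are 10 regulators of growth arrest: the CDK inhibitors Cdkn1a, Cdkn1b, Cdkn2a, Cdkn2b, Cdkn2c and Cdkn2d, the tumour suppressors Trp53 and Rb1, the p53 antagonist Mdm2 and the cyclin D1 gene Ccnd1. They were chosen by symbol, and all 10 were found among the 55487 genes of the deposited table and among the 16678 genes tested. Polyadenylated RNA was sequenced from TTF cells (usually short for tail-tip fibroblasts) of female mice that were C57BL6/CAST hybrids. The knockout group held 3 libraries of SIRT7-KO cells, called KO 2, KO 9 and KO 22 after the numbers of the cell lines, and the wild-type group held 3 libraries labelled S7WT, called WT 1, WT 2 and WT 3. SIRT7 is a nuclear sirtuin that removes acyl groups from proteins. Both groups share strain background, sex and cell type, and the labels give no age, no treatment and no account of how the lines were derived.

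CDK inhibitors hold back the kinases that drive a cell from G1 into S phase. The INK4 proteins p16, p15, p18 and p19 bind CDK4 and CDK6 and keep D-type cyclins from activating them, whereas the CIP/KIP proteins p21 and p27 act mainly on complexes with CDK2. Both routes keep RB unphosphorylated, and RB in that state binds E2F factors and silences the genes of DNA replication. The p53 protein induces p21, MDM2 marks p53 for degradation, and ARF, made from the same locus as p16, inhibits MDM2. In cultured fibroblasts these genes are best known for the arrest that follows serial passage, oncogene expression or DNA damage.

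The Cdkn2a locus is shown first because it encodes 2 proteins in different reading frames, and its counts have to be read per first exon. On the minus strand of chromosome 4 (GRCm38) the first exon of Arf, at chr4:89294334-89294653, lies 12141 bases upstream of the first exon of Ink4a, at chr4:89281986-89282192, and both are spliced to the same second exon, at chr4:89276645-89276985. In the junctions below, 30 bases of each first exon are in lower case and the first 30 bases of the shared exon are in capitals. The Ink4a first exon ends with 0 bases of a split codon and the Arf first exon with 1, so the shared exon is read in different frames.
Ink4a junction: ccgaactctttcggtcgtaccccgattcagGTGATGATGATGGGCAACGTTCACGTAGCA
Arf junction: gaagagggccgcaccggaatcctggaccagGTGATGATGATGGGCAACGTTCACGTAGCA

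The promoters of this locus are shown because Cdkn2a and Cdkn2b were 2 of the 3 members whose groups did not overlap. RefSeq's table of promoters for GRCm38.p6 held 11 windows for 8 of the 10 members. The stretches below end just before the annotated transcript start, on the minus strand, and lie at chr4:89282193-89282442 for Ink4a, chr4:89294654-89294869 for Arf and chr4:89311040-89311282 for Cdkn2b. Capitals mark the E2F strings TTTGGCGC, TTTCCCGC, TTTCGCGC and TTTGCCGC and the GC box GGGCGG, searched on both strands. TTTCCCGC can share bases with the GC box of the other strand, and in the stretches shown no motifs overlap.
Ink4a promoter: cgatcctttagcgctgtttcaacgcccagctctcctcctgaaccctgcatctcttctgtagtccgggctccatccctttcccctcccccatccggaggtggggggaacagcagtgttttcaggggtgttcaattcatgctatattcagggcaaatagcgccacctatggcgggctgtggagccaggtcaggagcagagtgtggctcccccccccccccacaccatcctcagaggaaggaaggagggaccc
Arf promoter: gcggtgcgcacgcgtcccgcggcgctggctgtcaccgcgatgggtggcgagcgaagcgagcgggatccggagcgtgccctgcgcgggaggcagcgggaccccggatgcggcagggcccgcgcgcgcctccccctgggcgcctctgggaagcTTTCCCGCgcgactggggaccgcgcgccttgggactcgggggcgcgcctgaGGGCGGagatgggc
Cdkn2b promoter: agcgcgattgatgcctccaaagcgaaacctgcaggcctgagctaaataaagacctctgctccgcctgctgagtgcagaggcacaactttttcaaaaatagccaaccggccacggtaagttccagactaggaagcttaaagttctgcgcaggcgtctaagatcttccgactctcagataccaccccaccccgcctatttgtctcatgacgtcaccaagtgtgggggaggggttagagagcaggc
The Arf stretch held 35 CG dinucleotides, 1 E2F string and 1 GC box, whereas the Ink4a stretch held 7 CG dinucleotides and the Cdkn2b stretch 11, with neither motif. An E2F string was present in 2.26% of the 32851 promoter windows of the table and a GC box in 35.7%. Among the 11 windows of members, 1 held an E2F string and 8 held a GC box. These shares refer to full windows, which run past the annotated transcript start, whereas the stretches shown are parts of them. The full window held 3 GC boxes for Arf, 1 for Ink4a and 1 for Cdkn2b, so all of these count among the 8. A matched string is not evidence of a bound site.

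Total gene counts lay between 61065582 and 61506413 per library, and 37.0% to 37.9% of the counts split by allele were assigned to genome 1 or genome 2. The estimated biological coefficient of variation was 0.379 within the knockout group and 0.136 within the wild-type group. The share of counts from genome 1 also differed between knockout lines over whole chromosomes. On chromosome 11 it was 57.9%, 31.6% and 63.6% in KO 2, KO 9 and KO 22 (with Trp53 left out), against 57.5%, 58.0% and 57.8% in WT 1, WT 2 and WT 3. On other chromosomes the 3 lines were shifted together. Chromosome 7, with Ccnd1 left out, had 31.6%, 31.9% and 31.7% in the knockout libraries, against 58.2%, 56.7% and 58.0% in the wild-type ones, and chromosome 6, with Cdkn1b left out, had 61.7%, 63.4% and 61.4%, against 36.1%, 36.1% and 36.3%. Line and genotype cannot be told apart in any comparison below. The wild-type libraries are titled like a set of earlier knockout libraries, and the knockout lines are titled in another style. If the columns were matched rightly, a difference between these sets cannot be told from genotype either. Since no label ties the wild-type libraries to distinct animals or cultures, each p-value measures the spread between libraries, which may be technical. Sirt7 itself had 512, 694 and 787 counts in KO 2, KO 9 and KO 22, against 833, 1107 and 598 in WT 1, WT 2 and WT 3 (edgeR adjusted p = 0.515). Sirt7-201, the transcript with the full coding sequence, had 2, 0 and 0 counts in the knockout libraries, against 53, 58 and 159 in the wild-type ones. Sirt7-207, with a shorter coding sequence of 585 bases, had 60, 129 and 0 counts, against 118, 11 and 68, so its groups overlapped. The division of reads between these transcripts is estimated. All 9 fibroblast markers were detected, with a summed level of 23471 to 30423 CPM (counts per 1e+06 gene counts) in knockout and 14414 to 14600 CPM in wild type. Thy1 and Dcn were at 0.195 and 16.4 CPM in KO 9, whereas Thy1 was at least 21.6 CPM and Dcn at least 118 CPM in each of the other 5 libraries. Lum was also lowest in KO 9, with 6.08, 0.277 and 1.13 CPM in KO 2, KO 9 and KO 22, against 0.786, 0.423 and 0.618 CPM in WT 1, WT 2 and WT 3. Vim, Col1a1 and Pdgfra were not low in KO 9 alone. In the same order of libraries, Vim had 3984, 5241 and 2979 CPM, against 2543, 2628 and 2677 CPM. Col1a1 had 11534, 14065 and 15827 CPM, against 7383, 7449 and 7390.3 CPM, and Pdgfra had 9.46, 11.4 and 81.3 CPM, against 68.6, 76.0 and 73.5 CPM. The 6 lists of markers of other cell types each summed to at most 12.3 CPM in knockout and 17.5 CPM in wild type, and Cdh5, Adgre1, Tyrobp, Myod1, Myog, Pax7 and Ibsp had 0 counts in every library.

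Knockout was compared with wild type to ask which arrest genes differed without SIRT7. Cdkn2b, which encodes p15, was the 1 member that passed the test over all genes, and it lay higher by 0.47 on the log2 scale (SE 0.09, adjusted p = 0.0346). Cdkn2a and Cdkn1b also lay higher in every knockout library than in any wild-type library but did not pass the test over all genes. The other 7 members had overlapping groups, and in 5 of them the knockout lines lay on both sides of the wild-type libraries. Thus 1 of 10 members passed the edgeR quasi-likelihood test with Benjamini-Hochberg adjustment, against 6.73% of all tested genes, and groups did not overlap in 3 of 10 members, against 35.9% of all tested genes. The median log2 fold change was 0.07 over the members and 0.02 over all tested genes, with 7 members positive and 3 negative. Of all tested genes, 3.54% were called higher and 3.19% lower. Both shares of members lay near these backgrounds. RNA was taken from whole cultures, so fewer cells of a kind and less RNA per cell cannot be told apart.

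**Figure D1:**
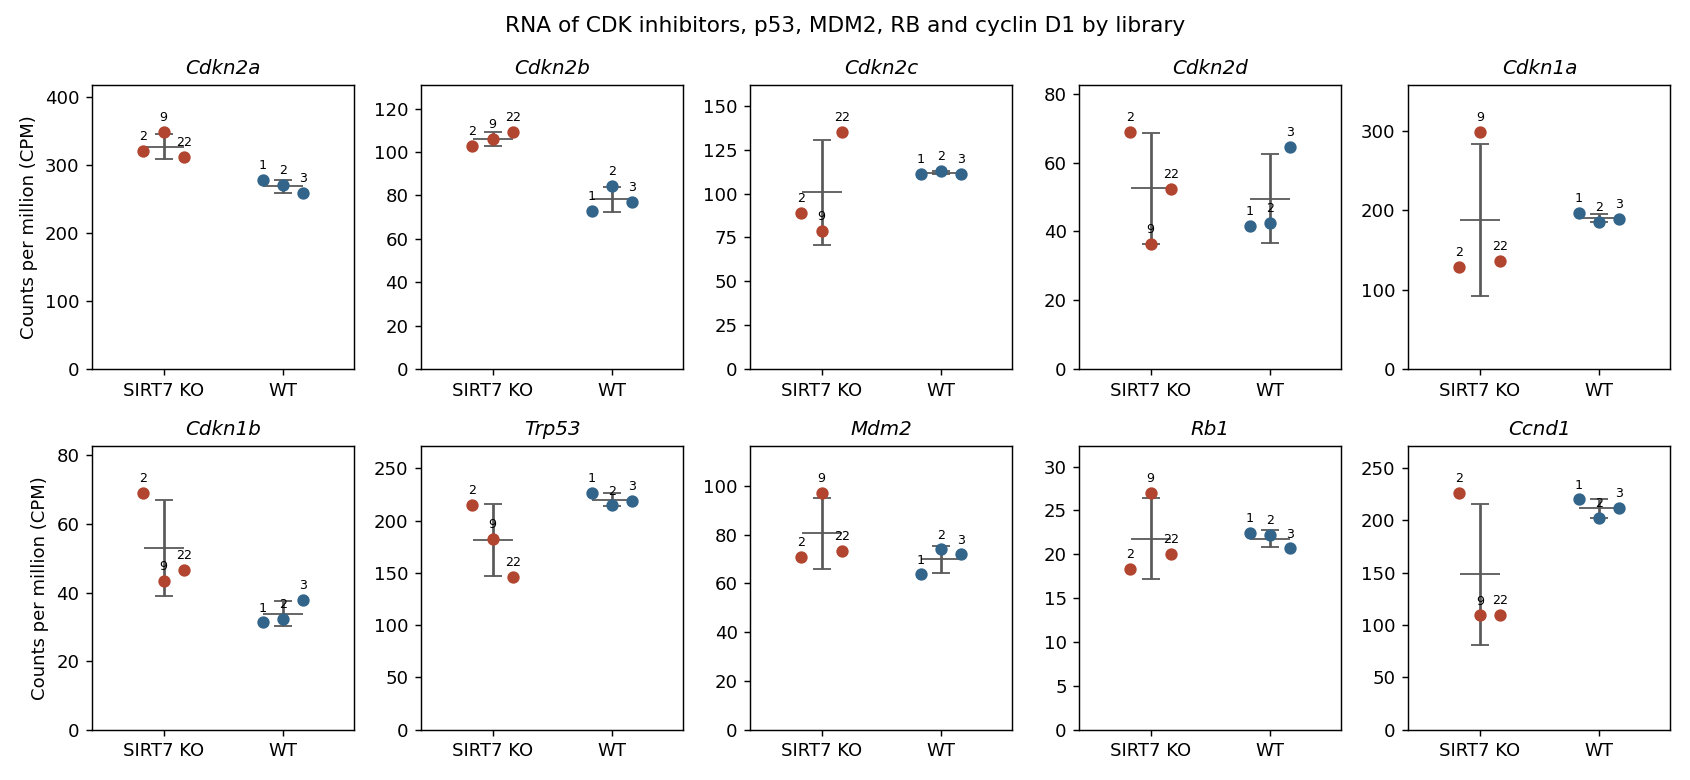
CPM of each of the 10 genes in the 3 SIRT7 KO libraries (2, 9, 22) and the 3 WT libraries (1, 2, 3); points are libraries, long bars group means and whiskers 1 SD, each panel with its own axis from 0. Cdkn2a, Cdkn2b and Cdkn1b have no overlap between groups, whereas Cdkn1a spans 129 to 299 CPM within the knockout group and 186 to 197 CPM within the wild-type group.

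Levels of different genes were compared as CPM per kilobase of merged exons. Cdkn2a was the most abundant member, at 279 ± 15.97 in knockout and 229 ± 8.08 in wild type (SD, n = 3 each), above 98.9% of tested genes in knockout and 98.4% in wild type. Cdkn2b followed with 76.3 ± 2.26 in knockout and 56.2 ± 4.09 in wild type. Rb1, the retinoblastoma gene, had the lowest level per kilobase, 3.62 ± 0.764 in knockout and 3.62 ± 0.162 in wild type.

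In knockout the order went on with Cdkn1a (52.9), Trp53 (44.8), Cdkn2c (37.5), Cdkn2d (33.3), Ccnd1 (31.5), Mdm2 (15.8) and Cdkn1b (11.7 CPM per kilobase). In wild type it was Trp53 (54.4), Cdkn1a (53.7), Ccnd1 (44.9), Cdkn2c (41.6), Cdkn2d (31.4), Mdm2 (13.7) and Cdkn1b (7.44). Neighbours in the knockout order overlapped between libraries except at 3 steps, from Cdkn2a to Cdkn2b, from Ccnd1 to Mdm2 and from Cdkn1b to Rb1. In wild type the libraries of neighbours overlapped only between Cdkn2b and Trp53 and between Trp53 and Cdkn1a. With the length of the longest transcript in place of merged exons, 7 of the 10 genes kept their place in the wild-type order: Cdkn2b moved to place 5 (place 2 with merged exons), Cdkn1a to 2 (4) and Ccnd1 to 4 (5).

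Among the INK4 genes, Cdkn2b (ENSMUSG00000073802, chromosome 4, 89306299 to 89311039) had 103, 106 and 109 CPM in KO 2, KO 9 and KO 22, against 73.0, 84.2 and 77.1 CPM in WT 1, WT 2 and WT 3. The lowest knockout library was above the highest wild-type library, and the means were 106 ± 3.15 CPM in knockout and 78.1 ± 5.69 CPM in wild type (SD, n = 3 each). This was the only member whose coefficient of variation was smaller in knockout than in wild type, 2.97% against 7.28%. For 9 of 10 members it was larger in knockout, as for 81.1% of tested genes. The Cdkn2b call was lost without WT 1 (adjusted p = 0.180), without WT 2 (0.137) and without WT 3 (0.185), when the number of all called genes fell to 51, 45 and 50. It was also lost with no filter on low counts (0.0668), while the log2 fold change stayed between 0.43 and 0.52 under these alternatives.

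Cdkn2a (ENSMUSG00000044303, chromosome 4, 89274471 to 89294653), the gene of p16 and ARF, had 320.3, 348 and 312 CPM in KO 2, KO 9 and KO 22, against 277, 270.0 and 258 CPM in WT 1, WT 2 and WT 3. Every knockout library was above every wild-type library, with means of 327 ± 18.7 CPM in knockout and 269 ± 9.47 CPM in wild type (SD, n = 3 each). The log2 fold change of 0.31 (SE 0.08) did not pass the edgeR test (adjusted p = 0.0717), whereas DESeq2 called it (adjusted p = 0.00950). The 38 tested genes within 5 megabases had a median log2 fold change of 0.11, and the median over chromosome 4 was 0.00048. Relative to the wild-type mean, the median of the 38 genes was -0.096, 0.255 and -0.092 on the log2 scale in KO 2, KO 9 and KO 22. The same value for Cdkn2a was 0.25, 0.37 and 0.22. Its neighbourhood was thus above wild type in KO 9 only, whereas the gene was above in all 3 lines.

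The transcript table separated the 2 products of Cdkn2a. The Ink4a transcript, which encodes p16, had 118, 158 and 124 CPM in KO 2, KO 9 and KO 22, against 112, 107 and 100.3 CPM in WT 1, WT 2 and WT 3. The Arf transcript had 202, 189.7 and 188 CPM in the knockout libraries, against 165, 163 and 158 CPM in the wild-type ones. Neither transcript overlapped between groups, and both exact two-sided permutation tests gave p = 0.10, the smallest that 3 libraries against 3 allow. Group means were 133 ± 21.4 CPM in knockout and 106 ± 5.90 CPM in wild type for Ink4a, and 193 ± 7.86 CPM in knockout and 162 ± 3.61 CPM in wild type for Arf (SD, n = 3 each).

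Ink4a made up 36.9%, 45.4% and 39.9% of Cdkn2a counts in KO 2, KO 9 and KO 22, against 40.4%, 39.6% and 38.8% in WT 1, WT 2 and WT 3. The knockout lines lay on both sides of the wild-type range, and KO 9 was the highest library. The mean was 40.7% ± 4.34 in knockout and 39.6% ± 0.812 in wild type, a difference of 1.11 percentage points (SD, n = 3 each; exact two-sided permutation p = 0.80). Without KO 9 the difference was -1.24 points. The 95% Wilson intervals were 44.8% to 46.1% for KO 9 and 36.2% to 37.6% for KO 2, which cover counting error alone.

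**Figure D2:**
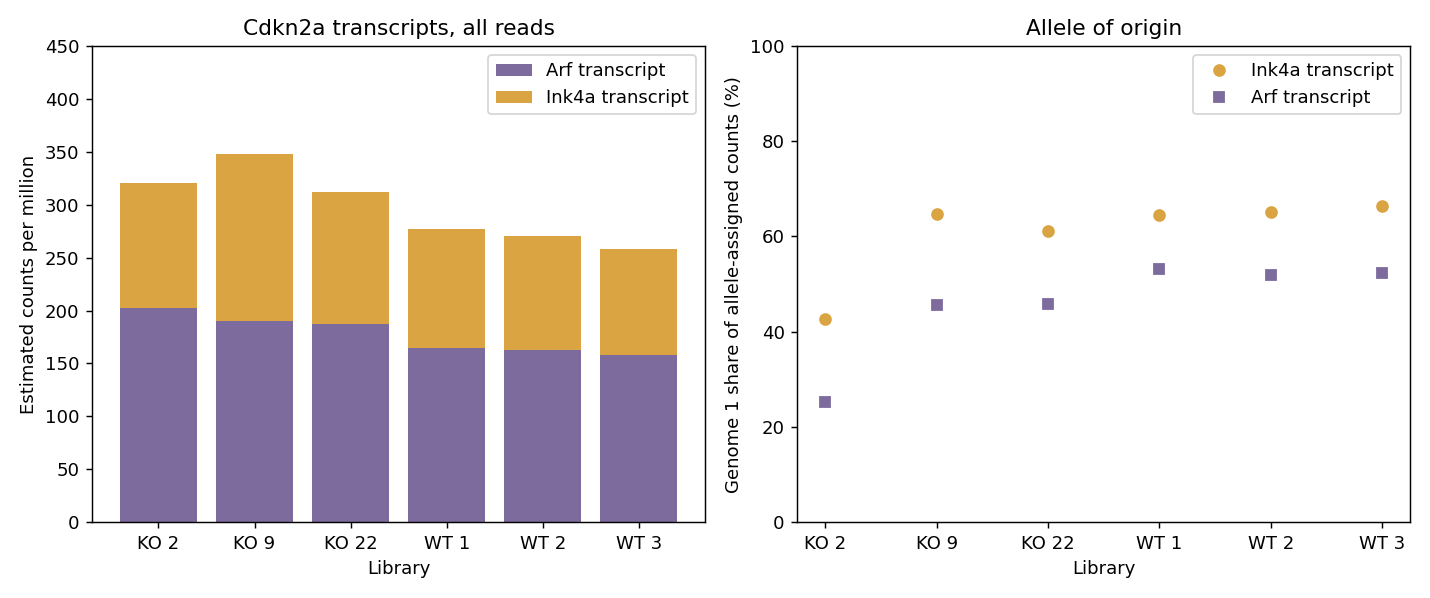
Left, CPM of the Arf and Ink4a transcripts of Cdkn2a in each library, stacked; right, the share of allele-assigned counts from genome 1 for each transcript, in percent. KO 2 has the lowest genome 1 share of both transcripts, 42.8% for Ink4a and 25.3% for Arf, and Arf lies below Ink4a in all 6 libraries.

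The INK4 genes of p18 and p19 did not differ between groups beyond their spread. Cdkn2c (ENSMUSG00000028551, chromosome 4, 109660876 to 109667189; p18) had 88.9, 78.6 and 135 CPM in KO 2, KO 9 and KO 22, against 111, 113 and 111 CPM in WT 1, WT 2 and WT 3. KO 22 was above and the other 2 knockout lines were below the narrow wild-type range (log2 fold change -0.11, SE 0.21, adjusted p = 0.777). Without KO 22, the line above wild type, the fold change was -0.40 and past the test (adjusted p = 0.0348). That setting called 2482 of 17167 tested genes. The fold change was 0.03 without KO 9.

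Cdkn2d (ENSMUSG00000096472, chromosome 9, 21288410 to 21291407; p19) had 68.8, 36.4 and 52.3 CPM in KO 2, KO 9 and KO 22, against 41.5, 42.4 and 64.5 CPM in WT 1, WT 2 and WT 3. It was the member with the widest spread in wild type, where WT 3 stood above the other 2 libraries (log2 fold change 0.11, SE 0.27, adjusted p = 0.828). Part of that spread was in 1 transcript: Cdkn2d-201 had 821, 1237 and 1717 counts in the knockout libraries, against 15, 10 and 867 in WT 1, WT 2 and WT 3. Transcript counts are estimated by dividing reads between transcripts that overlap. The sign of the Cdkn2d fold change turned without KO 2 (-0.11) and with chromosome medians taken out (-0.05).

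Of the CIP/KIP genes, Cdkn1b (ENSMUSG00000003031, chromosome 6, 134920401 to 134925513; p27) had 69.1, 43.5 and 46.6 CPM in KO 2, KO 9 and KO 22, against 31.3, 32.4 and 37.9 CPM in WT 1, WT 2 and WT 3. All knockout libraries were above all wild-type libraries, and KO 2 was well above the other 2. Means were 53.04 ± 13.95 CPM in knockout and 33.9 ± 3.55 CPM in wild type (SD, n = 3 each), with a log2 fold change of 0.68 (SE 0.19, adjusted p = 0.0819). It was the largest log2 fold change of the 10 members in either direction, and DESeq2 called it (adjusted p = 0.0122). Without KO 2 the fold change was 0.45 (adjusted p = 0.0760).

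By the estimated division of reads between transcripts, the excess in KO 2 was in the shorter of the main Cdkn1b transcripts. Cdkn1b-201, of 2393 bases, had 2700, 894 and 996 counts in KO 2, KO 9 and KO 22, against 722, 767 and 858 in WT 1, WT 2 and WT 3. Cdkn1b-202, of 4552 bases, had 1517, 1560 and 1745 counts in the knockout libraries, against 1078, 1170 and 1361 in the wild-type ones. Both carry the same coding length of 591 bases, and neither overlapped between groups. The 45 tested genes within 5 megabases had a median log2 fold change of 0.04, with 0 of them past the test.

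Cdkn1a (ENSMUSG00000023067, chromosome 17, 29090976 to 29100727), the p21 gene and the best-known p53 target, had 129, 299 and 137 CPM in KO 2, KO 9 and KO 22, against 197, 186 and 189.6 CPM in WT 1, WT 2 and WT 3. KO 9 was above and the other 2 knockout lines were below every wild-type library. The means of 188 ± 96.0 CPM in knockout and 190.6 ± 5.47 CPM in wild type were therefore nearly equal (SD, n = 3 each), with a log2 fold change of 0.01 (SE 0.32, adjusted p = 0.988). Without KO 9 the fold change was -0.50 and past the test (adjusted p = 0.0317), when 1256 of 17036 tested genes were called. The library left out there is the one that lay above wild type.

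The surroundings of Cdkn1a went in another direction from the gene in KO 9 only. The median of the 253 tested genes within 5 megabases was -0.24, -0.60 and -0.34 on the log2 scale relative to the wild-type mean in KO 2, KO 9 and KO 22. The same value for Cdkn1a was -0.57, 0.65 and -0.48. In KO 2 and KO 22 both gene and neighbourhood were below wild type, whereas in KO 9 the gene was above and its neighbourhood below. An antisense-oriented gene, AC167363.2, shares 273 exonic bases with Cdkn1a, and the sources used here do not say whether counting used the strand.

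Trp53 (ENSMUSG00000059552, chromosome 11, 69580359 to 69591873), the p53 gene, had 215, 182 and 146 CPM in KO 2, KO 9 and KO 22, against 226, 215 and 219 CPM in WT 1, WT 2 and WT 3. KO 2 was within the wild-type range, KO 9 and KO 22 were below it, and the fold change of -0.25 did not pass the test (SE 0.14, adjusted p = 0.294). Mdm2 (ENSMUSG00000020184, chromosome 10, 117688875 to 117710758), which encodes the ubiquitin ligase of p53 and is itself a p53 target, had 71.0, 97.1 and 73.4 CPM in the knockout libraries, against 63.7, 74.0 and 71.9 CPM in the wild-type ones. Here KO 9 alone was above the wild-type range (log2 fold change 0.24, SE 0.14, adjusted p = 0.344). Its 64 tested neighbours within 5 megabases had a median log2 fold change of 0.23, close to that of Mdm2 over the group but not line by line. Relative to the wild-type mean, the neighbour median was 0.24, 0.14 and 0.11 in KO 2, KO 9 and KO 22. The same value for Mdm2 was 0.024, 0.47 and 0.071. Without KO 9 the fold change of Mdm2 was 0.077 (adjusted p = 0.652), and subtracting the median of each chromosome gave 0.075 (0.790).

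The division of Mdm2 counts among transcripts was unstable. Mdm2-209, annotated as a target of nonsense-mediated decay, had 2941, 4010 and 2922 counts in KO 2, KO 9 and KO 22, against 2594, 2989 and 0 in WT 1, WT 2 and WT 3. Mdm2-201, which has the longest coding sequence, had 750, 887 and 805 counts in the knockout libraries, against 733, 679 and 3821 in the wild-type ones. In WT 3 the counts were thus assigned to the other transcript, and gene-level values are used for Mdm2 throughout.

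Rb1 (ENSMUSG00000022105, chromosome 14, 73183673 to 73325822) had 18.3, 27.0 and 20.1 CPM in KO 2, KO 9 and KO 22, against 22.4, 22.2 and 20.7 CPM in WT 1, WT 2 and WT 3. KO 9 was the highest library and KO 2 and KO 22 the lowest (log2 fold change 0.03, SE 0.17, adjusted p = 0.927). Rb1 shares 488 exonic bases with Rcbtb2 and 408 with Lpar6 on the opposite strand. Without KO 9 the fold change was -0.16 and did not pass the test.

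Ccnd1 (ENSMUSG00000070348, chromosome 7, 144929931 to 144939925) encodes cyclin D1, the partner of CDK4 and CDK6 that the INK4 proteins displace. It had 226, 109 and 109.6 CPM in KO 2, KO 9 and KO 22, against 219.9, 202 and 212 CPM in WT 1, WT 2 and WT 3. KO 2 was the highest library, and KO 9 and KO 22 lay below every wild-type library, each at -0.95 on the log2 scale relative to the wild-type mean. The fold change over all 3 lines was -0.49 (SE 0.28, adjusted p = 0.327), and without KO 2 it was -0.91 and past the test (adjusted p = 0.00912). Leaving out KO 2, the line not below wild type, called 1662 of 17095 tested genes. The median of the 86 tested neighbours of Ccnd1 within 5 megabases was -0.0026, 0.10 and -0.13 in KO 2, KO 9 and KO 22. LTO1, on the opposite strand, shares 1100 of the 4709 exonic bases of Ccnd1.

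Reads that cover base differences between the parental chromosomes showed which copy of each gene was read. Genome 1 and genome 2 stand for the parental copies, and the sources used here do not say which strain is genome 1. Of the 9 members other than Mdm2, Ccnd1 alone passed the edgeR test for a different allelic ratio in knockout, against 23.0% of 12984 genes tested for it. The genome 1 share of Ccnd1 was 26.8%, 29.1% and 29.5% in KO 2, KO 9 and KO 22, against 59.3%, 60.9% and 63.5% in WT 1, WT 2 and WT 3. The groups were far apart, with a log2 allelic ratio of -1.99 (SE 0.14, adjusted p = 0.00144), and the call held without any 1 of the 6 libraries (adjusted p of 0.00139 to 0.0161).

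The Ccnd1 share lay near that of its surroundings, and chromosome 7 as a whole was shifted alike in the 3 lines. The median share of genes within 5 megabases was 33.6%, 33.9% and 33.8% in KO 2, KO 9 and KO 22, against 60.6%, 60.9% and 60.8% in WT 1, WT 2 and WT 3, so that Ccnd1 itself differed from it by at most 6.84 points. The counts showed which copy was low in which line. Genome 1 gave 1880, 1013 and 924 counts in the knockout libraries, against 4044, 3775 and 4120 in the wild-type ones. Genome 2 gave 5146, 2466 and 2206 counts in the knockout libraries, against 2779, 2427 and 2369 in the wild-type ones. In KO 2 the high count from genome 2 offset the low one from genome 1, whereas in KO 9 and KO 22 genome 2 stayed near its wild-type counts.

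**Figure D3:**
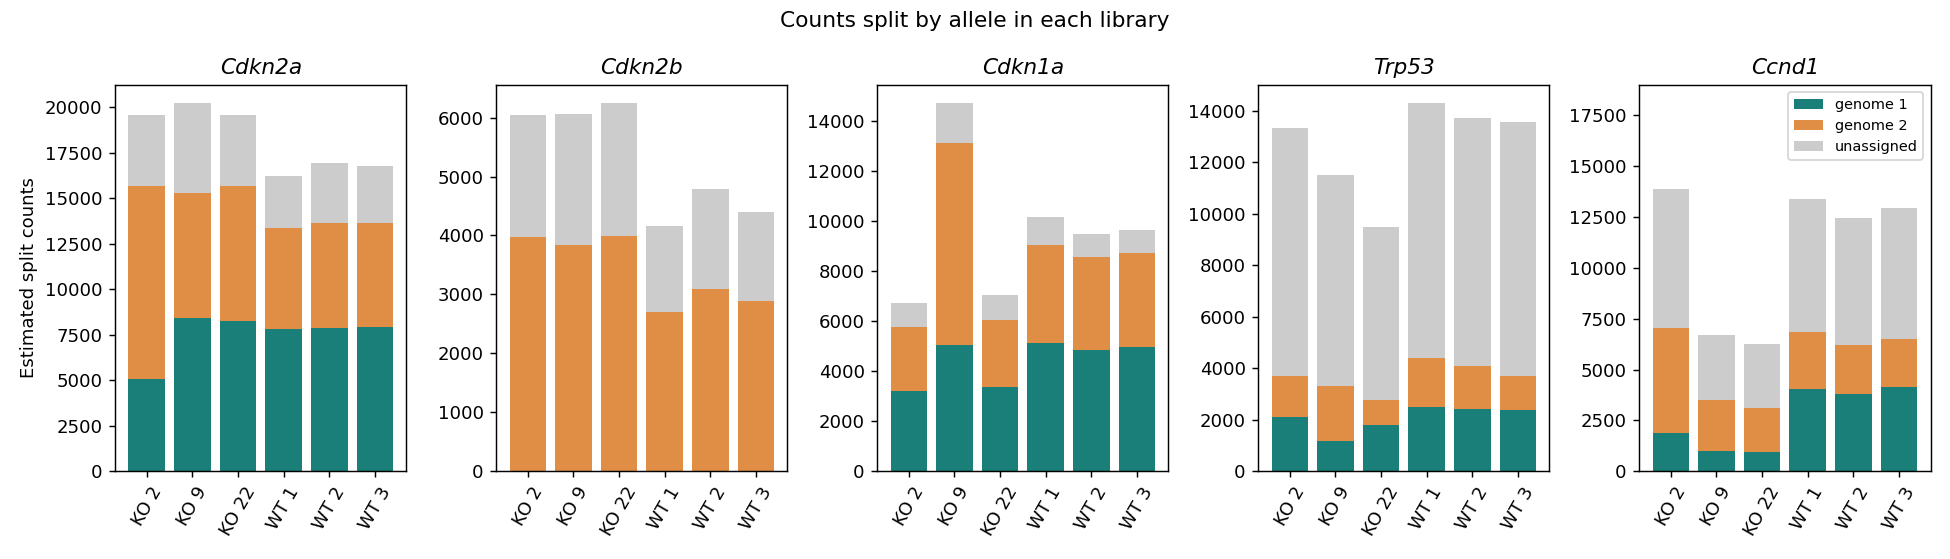
Estimated counts assigned to genome 1, genome 2 or neither, for 5 of the genes in the 3 SIRT7 KO libraries and the 3 WT libraries. Ccnd1 has 924 to 1880 genome 1 counts in knockout and 3775 to 4120 in wild type, and Cdkn2b has at most 7 genome 1 counts in any library.

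Cdkn2b was read almost wholly from genome 2 in both groups. Genome 1 gave 0, 3 and 7 counts in KO 2, KO 9 and KO 22, against 2, 5 and 0 in WT 1, WT 2 and WT 3. Genome 2 gave 3967, 3835 and 3992 counts in the knockout libraries, against 2700, 3085 and 2888 in the wild-type ones. The highest genome 1 share was 0.175% (KO 22; 95% Wilson interval 0.0848% to 0.361%), while the median of genes within 5 megabases was 29.5% to 51.9% in knockout and 52.99% to 55.6% in wild type. Among allele-assigned counts the rise of Cdkn2b was thus on genome 2, and whether reads from genome 1 were lost before counting was not tested.

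Cdkn2a, the gene next to it, was read from both copies. Its genome 1 share was 32.4%, 55.2% and 52.7% in KO 2, KO 9 and KO 22, against 58.5%, 57.6% and 58.4% in WT 1, WT 2 and WT 3, and the ratio did not pass the test (log2 allelic ratio -0.67, SE 0.37, adjusted p = 0.254). KO 2 stood apart, as did its neighbourhood, with a median share of 29.4%, and without KO 2 the ratio was -0.25 (adjusted p = 0.214). The first exons differed in every library: genome 1 gave 42.8%, 64.7% and 61.1% of Ink4a counts in the knockout libraries, against 64.6%, 65.2% and 66.5% in the wild-type ones. For Arf it gave 25.3%, 45.7% and 45.8% in the knockout libraries, against 53.1%, 51.9% and 52.2% in the wild-type ones. Arf was below Ink4a in all 6 libraries, and because the transcripts share every exon but the first, these shares rest on an estimated division of reads.

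Among allele-assigned counts the high Cdkn1a level of KO 9 was on genome 2. Genome 2 gave 2560, 8070 and 2658 counts in KO 2, KO 9 and KO 22, against 3906, 3735 and 3789 in WT 1, WT 2 and WT 3. Genome 1 gave 3224, 5063 and 3382 counts in the knockout libraries, against 5136, 4848 and 4965 in the wild-type ones. In KO 9 the genome 1 count was within the wild-type range, and in KO 2 and KO 22 both copies were below wild type. The genome 1 share of 38.6% in KO 9 was near the 34.01% of its neighbours, and the allelic ratio did not pass the test (adjusted p = 0.415).

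Trp53 had a genome 1 share of 56.4%, 35.3% and 65.2% in KO 2, KO 9 and KO 22, against 57.0%, 59.3% and 63.5% in WT 1, WT 2 and WT 3 (adjusted p = 0.552). KO 9 stood apart here too, as did its neighbours at 32.9%. Genome 1 gave 2090, 1171 and 1804 counts in the knockout libraries, against 2494, 2408 and 2359 in the wild-type ones, and genome 2 gave 1618, 2145 and 964 counts, against 1882, 1656 and 1355. In KO 9 genome 1 was below its wild-type range and genome 2 above it, in KO 22 both copies were below, and in KO 2 genome 1 was below and genome 2 within it. A Trp53 pseudogene lies on another chromosome and may share reads with the gene.

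Cdkn1b had a genome 1 share of 26.8%, 24.4% and 27.2% in KO 2, KO 9 and KO 22, against 19.2%, 14.4% and 19.3% in WT 1, WT 2 and WT 3. The groups did not overlap, yet the ratio missed the threshold (log2 allelic ratio 0.73, SE 0.21, adjusted p = 0.0509) and passed it without KO 9 (0.0422) and with a higher count minimum (0.0451). Its neighbours also had low shares, 26.6%, 30.1% and 34.5% in the knockout libraries, against 13.99%, 16.8% and 14.4% in the wild-type ones. For Rb1 and Cdkn2c the share lay within 8.08 and 3.18 points of the neighbourhood in every library. Cdkn2d had shares of 70.3%, 50.1% and 51.7% in the knockout libraries, against 16.9%, 53.6% and 37.6% in the wild-type ones, a spread within wild type that its neighbours did not have. Mdm2 had 0 genome 1 counts in every library and only 2.59% of its split counts assigned to either copy, and it was left without an allelic result after these values were seen.

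**Figure D4:**
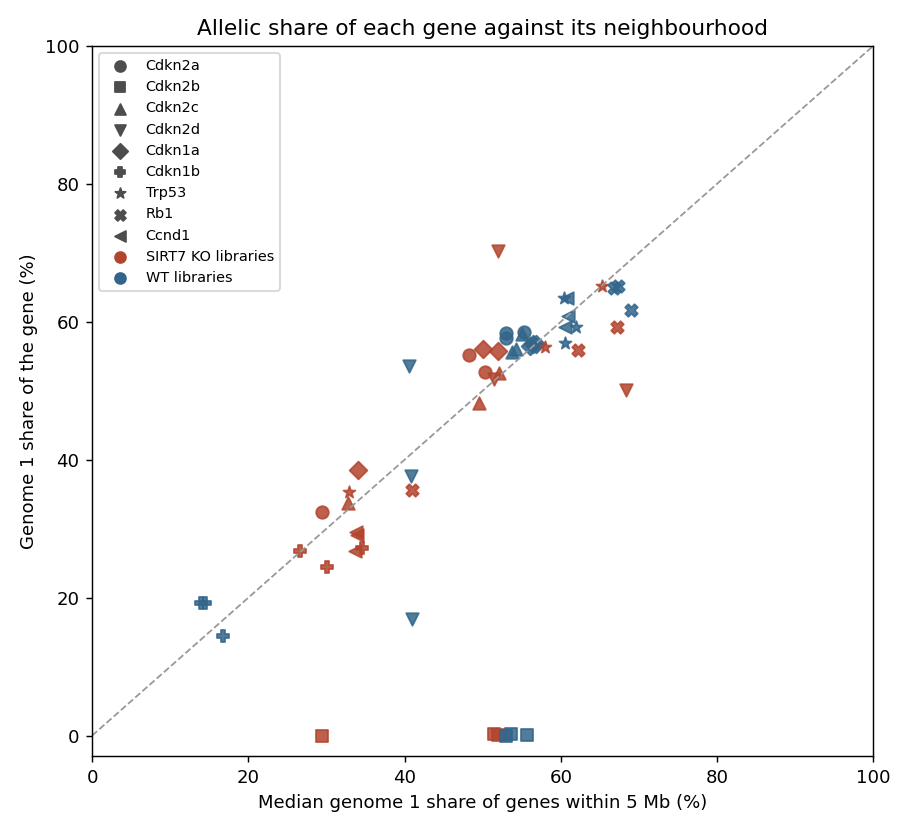
Genome 1 share of 9 genes in each library (vertical, percent) against the median share of the genes within 5 megabases (horizontal, percent); symbols are genes, red points SIRT7 KO and blue points WT libraries, and the dashed line marks equality. Points other than those of Cdkn2b and Cdkn2d lie within 8.08 points of the line, whereas Cdkn2b lies at or near 0% throughout.

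The wider pathway was described with 7 gene lists, chosen like the members with earlier results of these data known. Among 31 tested p53 target genes 0 passed the edgeR test, against 6.73% of all tested genes, and 9 had an unadjusted p under 0.05. The median log2 fold change was 0.17, against 0.02 for all tested genes. At an unadjusted p under 0.05 the background was 26.3% of tested genes. DESeq2 called 4 of the 31, against 2889 of all 16678 tested genes, and limma-voom 0, against 1103. Those with the smallest p were the mitotic protein gene Ckap2 (0.47, SE 0.12, adjusted p = 0.0620), the growth arrest gene Rprm (1.81, adjusted p = 0.0802), the kinase gene Plk2 (1.55, adjusted p = 0.108) and the stress sensor Gadd45a (0.91, adjusted p = 0.131). Ckap2 had 97.8, 113 and 97.1 CPM in KO 2, KO 9 and KO 22, against 65.9, 80.7 and 80.4 CPM in WT 1, WT 2 and WT 3. Rprm was near the floor, with 1.03, 0.455 and 1.37 CPM in the knockout libraries, against 0.393, 0.244 and 0.195 CPM in the wild-type ones. Plk2 had 133, 183 and 39.8 CPM, against 43.0, 38.8 and 41.5 CPM, so that KO 22 lay within the wild-type range.

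By library, p53 targets stood high in KO 9, as Cdkn1a and Mdm2 did. The median of the 31 genes was -0.07, 0.33 and -0.05 on the log2 scale relative to the wild-type mean in KO 2, KO 9 and KO 22, against -0.03, 0.02 and 0.02 in WT 1, WT 2 and WT 3. KO 9 was the highest of the 6 libraries for 17 of the 31 genes, or 54.8%, against 23.4% of all tested genes. Among them were Ccng1, which encodes cyclin G1, with 63.0, 156 and 53.1 CPM in the knockout libraries, against 51.4, 51.6 and 57.6 CPM in the wild-type ones, and the p53 cofactor gene Trp53inp1, with 4.78, 19.7 and 13.9 CPM in the knockout libraries, against 5.01, 6.33 and 5.80 CPM in the wild-type ones. Both were named after their values were seen. Other targets were not high in KO 9, and KO 9 was the lowest library for 4 of the 31, or 12.9%, against 24.9% of all tested genes. Psrc1 had 5.75, 0.634 and 12.2 CPM in the knockout libraries, against 18.3, 21.3 and 19.1 CPM in the wild-type ones. The apoptosis gene Aen had 41.0, 29.2 and 29.6 CPM in the knockout libraries, against 41.9, 41.0 and 30.96 CPM in the wild-type ones. Psrc1 and Aen were also chosen after their values were seen. A single library cannot be tested against the others, so this is a description of KO 9.

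**Figure D5:**
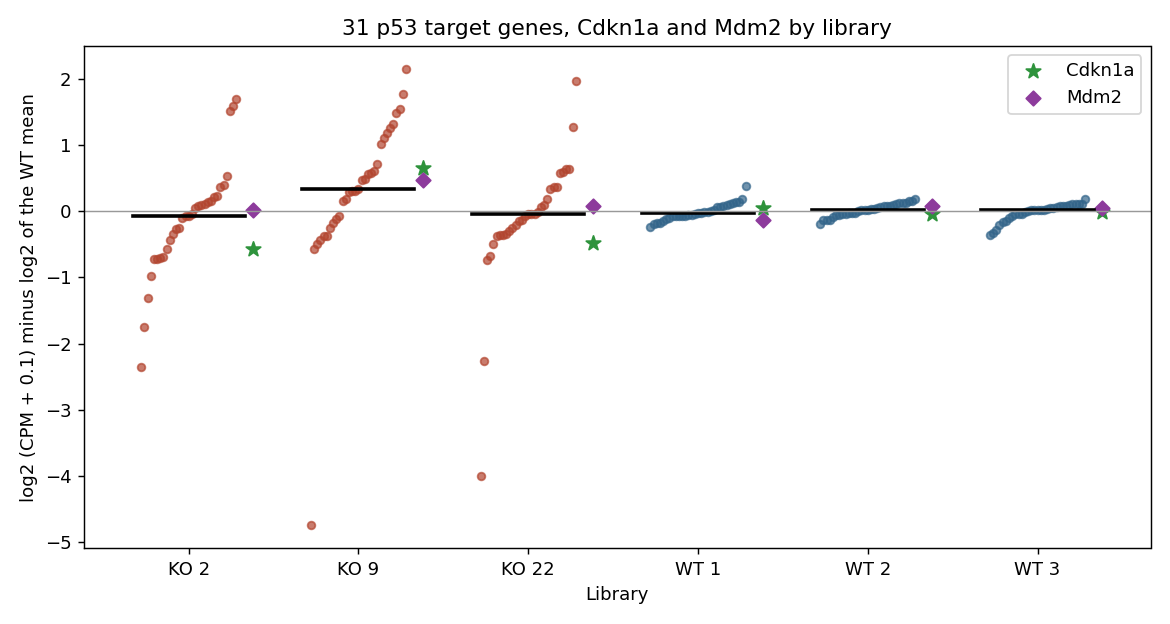
Log2 of CPM + 0.1 minus log2 of the WT mean for 31 p53 target genes in each library (points, sorted within a library), with the median of the 31 as a black bar and Cdkn1a and Mdm2 as a star and a diamond. The median is 0.33 in KO 9 and between -0.07 and 0.02 in the other 5 libraries, and Cdkn1a is 0.65 above the WT mean in KO 9 only.

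Of 18 tested p53 regulators 0 passed, against 6.73% of all tested genes, and 3 had an unadjusted p under 0.05, against 26.3%. DESeq2 called 3 of them, against 2889 of all 16678 tested genes, and limma-voom 0, against 1103. The ribosomal protein gene Rpl11, whose product binds MDM2, had 471, 511 and 475 CPM in KO 2, KO 9 and KO 22, against 635, 637 and 779 CPM in WT 1, WT 2 and WT 3 (log2 fold change -0.46, SE 0.11, adjusted p = 0.0563). The nucleolar gene Npm1 (-0.25, adjusted p = 0.0908), the acetyltransferase gene Ep300 (-0.41, adjusted p = 0.0919) and the MDM2 relative Mdm4 (0.28, adjusted p = 0.197) followed. The list's median was 0.05.

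Of 19 tested genes of the RB family, E2F factors and the DREAM complex, 2 rose and 0 fell, against 3.54% and 3.19% of all tested genes, and 8 had an unadjusted p under 0.05, against 26.3%. E2f7, an E2F that represses transcription, had 98.7, 92.9 and 91.8 CPM in KO 2, KO 9 and KO 22, against 76.1, 65.6 and 66.6 CPM in WT 1, WT 2 and WT 3 (log2 fold change 0.47, SE 0.10, adjusted p = 0.0404). Rbl2, which encodes the RB relative p130 of quiescent cells, had 41.1, 43.1 and 38.8 CPM in the knockout libraries, against 29.4, 32.3 and 30.5 CPM in the wild-type ones (0.45, SE 0.09, adjusted p = 0.0424). In both genes the groups did not overlap. E2f8 (-0.59, adjusted p = 0.0608) and E2f5 (-0.40, adjusted p = 0.0856) did not pass. Both calls were lost without WT 1, WT 2 or WT 3 (adjusted p of 0.124 to 0.202 for E2f7 and 0.173 to 0.208 for Rbl2) and without KO 9 (0.05002 for E2f7 and 0.0536 for Rbl2). Taking out chromosome medians also lost them, with fold changes of 0.31 for E2f7 (adjusted p = 0.0877) and 0.25 for Rbl2 (0.120), as did dropping the filter on low counts, and E2f7 was lost without KO 2 and with limma-voom with group weights (adjusted p = 0.0760). The direction of the calls in the list depended on the setting. DESeq2 called 2 higher and 3 lower, against 1504 and 1385 of all 16678 tested genes. limma-voom with group weights called 1 higher and 1 lower, against 665 and 625. Without KO 9 edgeR called 0 higher and 1 lower, against 614 and 642 of 17036 genes. The median log2 fold change of the list was -0.06.

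Of 17 tested G1 and S cyclins, CDKs and their regulators 0 passed, against 6.73% of all tested genes. An unadjusted p under 0.05 was found for 2, against 26.3%. DESeq2 called 1 of them, against 2889 of all 16678 tested genes, and limma-voom 0, against 1103. Skp2, whose product targets p27 for degradation, had 61.7, 53.8 and 70.3 CPM in KO 2, KO 9 and KO 22, against 80.9, 86.0 and 84.9 CPM in WT 1, WT 2 and WT 3 (log2 fold change -0.40, SE 0.12, adjusted p = 0.0957). The cyclin genes Ccne1 (0.39, adjusted p = 0.167) and Ccna2 (-0.43, adjusted p = 0.235) and the phosphatase gene Cdc25a (-0.18, adjusted p = 0.322) did not pass. The other D-type cyclins, named after their values were seen, also differed between knockout lines, Ccnd3 as Ccnd1 did and Ccnd2 in another way. Ccnd2 had 121, 87.0 and 0.409 CPM in the knockout libraries, against 15.1, 15.7 and 15.6 CPM in the wild-type ones, and Ccnd3 had 216, 66.5 and 109 CPM, against 211, 197 and 194 CPM. Cdk4, also named outside the smallest p of its list, encodes their main partner kinase. It had 853, 722 and 734 CPM in the knockout libraries, against 750.4, 735 and 721 CPM in the wild-type ones.

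Of 13 tested regulators of the Ink4-Arf locus 0 passed, against 6.73% of all tested genes, and 2 had an unadjusted p under 0.05, against 26.3%. DESeq2 called 1 of them, limma-voom 0 and limma-voom with group weights 1, against 2889, 1103 and 1290 of all 16678 tested genes. Id1, whose product opposes ETS activation of p16, had 84.1, 81.4 and 54.8 CPM in KO 2, KO 9 and KO 22, against 119, 112 and 117 CPM in WT 1, WT 2 and WT 3 (log2 fold change -0.63, SE 0.16, adjusted p = 0.0672). The Polycomb gene Bmi1, a repressor of the locus, was at 0.26 (adjusted p = 0.134), the H3K27 demethylase gene Kdm6b at 0.39 (0.212) and the Arf activator gene Dmtf1 at 0.27 (0.251). The median of the list was 0.03.

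Of 15 tested senescence-associated genes 1 rose and 1 fell, against 3.54% and 3.19% of all tested genes, with 5 at an unadjusted p under 0.05, against 26.3%, and a median of 0.01. Glb1, which encodes lysosomal beta-galactosidase, had 41.4, 36.5 and 35.8 CPM in KO 2, KO 9 and KO 22, against 26.3, 27.8 and 26.8 CPM in WT 1, WT 2 and WT 3 (log2 fold change 0.52, SE 0.10, adjusted p = 0.0336). Plaur, the urokinase receptor gene, had 19.3, 14.1 and 10.6 CPM in the knockout libraries, against 45.2, 38.1 and 40.3 CPM in the wild-type ones (-1.46, SE 0.22, adjusted p = 0.0190). The groups of both genes did not overlap, and both calls were lost without WT 1, WT 2 or WT 3, at adjusted p of 0.162 to 0.185 for Glb1 and 0.0966 to 0.114 for Plaur, with fold changes of 0.51 to 0.53 and of -1.53 to -1.39. Glb1 was also lost with chromosome medians taken out (0.38, adjusted p = 0.0956) and with no filter (0.0638). Igfbp5 (-1.18, adjusted p = 0.132), at under 1 CPM in every library, and Igfbp7 (0.68, adjusted p = 0.136) did not pass.

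Of 17 tested proliferation markers 0 passed, against 6.73% of all tested genes, and 2 had an unadjusted p under 0.05, against 26.3%. DESeq2 called 1 of them, against 2889 of all 16678 tested genes, and limma-voom 0, against 1103. The median log2 fold change was -0.16. The replication helicase genes Mcm2 (-0.38, adjusted p = 0.0795), Mcm3 (-0.24, adjusted p = 0.207) and Mcm7 (-0.21, adjusted p = 0.222) and the mitotic cyclin gene Ccnb1 (0.27, adjusted p = 0.146) had the smallest p. By library the median was -0.07, -0.29 and -0.15 in KO 2, KO 9 and KO 22 relative to the wild-type mean, and KO 9 was the lowest library for 10 of the 17 genes, or 58.8%, against 24.9% of all tested genes. Mki67, the gene of the Ki-67 antigen, had 343, 374 and 362 CPM in the knockout libraries, against 371, 364 and 359.7 CPM in the wild-type ones; it was chosen after its values were seen.

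The tested genes most like each of the 3 members with the largest fold changes were found by the root mean square difference of centred log2 CPM over the 6 libraries. Cdkn1b was closest to Ube2l6 (0.095), Gm18541 (0.099) and Gm43848 (0.104). Ccnd1 was closest to Dnph1 (0.043), C1qbp (0.063) and Adamtsl5 (0.072), which were also near the wild-type level in KO 2 and low in KO 9 and KO 22. Dnph1, for instance, had 71.2, 35.8 and 32.6 CPM in the knockout libraries, against 69.8, 65.1 and 67.5 CPM in the wild-type ones. Cdkn2b was closest to Tbc1d23, Selenos and 6820431F20Rik, at 0.031 to 0.033. None of these 9 genes lies on the chromosome of the member it resembles.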

How the data were processed

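PolyA RNA of 6 libraries was analysed, 3 of SIRT7 knockout and 3 of wild-type TTF cells; the other 9 of 15 labelled libraries were not analysed here. Estimated counts were deposited for each gene and transcript, and again after a split into genome 1, genome 2 and unassigned reads. Per the submitters' processing notes the tools were StringTie 1.3.3, HISAT2 2.1.0, Trimmomatic 0.36, DESeq2 1.32.0, FastQC 0.11.3 and SAMtools 0.1.19, and the builds GRCm38 and mm10. The sources used here give no settings, strand or annotation. The values are whole numbers, named estimated because StringTie derives counts from coverage. Knockout columns 2, 9 and 22 were matched by number to titles of knockout lines; earlier knockout libraries carry no line number, so the columns may be theirs. Of 55487 genes, 55141 matched GENCODE M21 (GRCm38), and the other 346 held 0.0319% of counts.

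Genes were tested with the quasi-likelihood test of edgeR 4.0.16 under R 4.3.3, with TMM scaling, filterByExpr and Benjamini-Hochberg adjustment over all tested genes, called at an adjusted p under 0.05. CPM are counts per 1e+06 gene counts. Allelic ratios were tested in edgeR by the interaction of allele and group, with library and allele as further terms, where a gene averaged at least 20 allele counts. Exact permutation tests used scipy 1.17.1. An adjusted p is edgeR's unless another tool is named. Alternatives were DESeq2 1.42.0, its size factors in edgeR, limma-voom (limma 3.58.1) with and without group weights, no filter, chromosome medians taken out, a minimum of 50 allele counts, limma on the logit share (0.5 added) and leaving out each library. The methods were tested on simulated data. Precision is limited by 3 libraries per group; Wilson intervals are at 95%.

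The members and lists were chosen with earlier results of these data known. Named genes are the members, Sirt7, up to 4 genes of each of 7 lists by smallest p, and the 3 genes most like each of the 3 members with the largest fold changes. Cell type markers given singly and genes that overlap members were named outside this rule, and other exceptions are marked in the text. Sequences are RefSeq promoters (GRCm38.p6; windows of 300 bases starting 250 before the gene start) and GENCODE M21 transcripts.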

Additional observations from a re-analysis of the deposited data

How the results depend on the processing

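No paired analysis was possible because the knockout columns carry line numbers 2, 9 and 22 and the wild-type columns 1, 2 and 3, so that a single number is shared and it is only a number. All genes called numbered 2889 with DESeq2, 396 with no filter and 45 to 2482 without 1 library. Members called were 3 with DESeq2 (Cdkn1b, Cdkn2a, Cdkn2b), 0 with no filter and 0 to 2 without 1 library. DESeq2 called 1 G1 and S gene, 3 p53 regulators, 4 p53 targets, 1 proliferation marker, 5 RB, E2F and DREAM genes and 1 regulator of the Ink4-Arf locus; without 1 library the ranges were 0 to 3, 0 to 1, 0 to 2, 0 to 1, 0 to 3 and 0 to 2, in the same order, and 0 to 3 for senescence genes. No filter gave 0 RB, E2F and DREAM genes and 1 senescence gene, and chromosome medians taken out also gave 0 and 1. limma-voom with group weights called 1 regulator of the Ink4-Arf locus. Members with a called allelic ratio were 2 with a minimum of 50 counts and 1 to 2 without 1 library. The main fit called 23.0% of 12984 genes, and the shares of all genes under these alternatives are not given here. With longest transcripts, 7 of 10 places in the wild-type level order were kept. The Ink4a share difference lay between -1.24 points (without KO 9) and 3.03 points without 1 library.

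The sign of the fold change turned for Cdkn1a with limma-voom (-0.10, and -0.10 with group weights), with no filter (-0.0042) and without KO 9 or WT 2, with a range of -0.50 to 0.23 without 1 library. It turned for Cdkn2c without KO 9 (range -0.40 to 0.034), for Cdkn2d without KO 2 (range -0.11 to 0.35) and with chromosome medians taken out (-0.051), and for Rb1 without KO 9 or WT 3 (range -0.16 to 0.15). The sign of the allelic ratio turned for Cdkn2b, which has few genome 1 counts, with limma (-0.13) and without KO 22 or WT 3 (range -1.01 to 1.07), and for Trp53 without KO 9 (range -0.83 to 0.054). The causes were not tested. Depth limits the allelic values of Cdkn2b genome 1 and of Mdm2.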
